A study of Mus musculus with 4 samples.

Results

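The genes described here are p53 and 9 of its well-known transcriptional targets, picked out by gene symbol. Platform annotation gave 15 of 22690 probe sets to these genes, covering 9 of the 10, and 5 genes had more than 1 probe set. Probe sets for Trp53 itself and for Ep300, the p300 gene, were not analysed here. RNA came from primary fibroblasts grown from e14.5 mouse embryos, with 1 expression array in each of 4 groups. The tri-CH1 cells carried a CH1 deletion on each p300 allele and on a single CBP allele, so that 1 CBP allele kept the domain. They were held for 6 h at 0.1% oxygen (tri-CH1 hypoxia) or 21% oxygen (tri-CH1 normoxia). The wildtype cells were held for the same 6 h at 0.1% oxygen (wildtype hypoxia) or 21% oxygen (wildtype normoxia). In every group subconfluent cells received medium brought to that oxygen level beforehand, and the chamber held 5% carbon dioxide at 37 °C. The labels do not say how many embryos or cultures stood behind an array. With 1 array per group there is no replicate error for any value here, and no test was run.

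p53 is a transcription factor that binds a pair of short half-sites in DNA and switches on genes that stop the cell cycle, start apoptosis or shut p53 itself off again. Its activation domain recruits CBP and p300, related acetyltransferases that bind p53 through several of their domains, the CH1 (TAZ1) domain among them, and that acetylate p53 and nearby histones. In embryonic fibroblasts p53 is known for limiting growth in culture. The comparison of genotypes therefore bears on how these targets stood when most CH1 domains were missing, and the comparison of oxygen levels on how they stood in hypoxia.

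Matches to the p53 site near the starts of these genes are shown first, because p53 acts through sites of this kind. They are matches to a pattern, and binding was not measured. RefSeq promoter windows (build GRCm38.p6), each running from 250 bases before to 50 bases after a transcript start, were given for 7 of the 10 genes and comprised 10 windows. Windows for Pmaip1, Perp and Trp53inp1 were not used here. Both strands were covered, since the p53 motif reads the same on either strand, and overlapping matches were kept. A full p53 site, made of 2 abutting half-sites of 10 bases each with at most 3 mismatches in all and the C and G of each core kept, was found in the windows of 4 of these 7 genes. Across all 27025 genes with a window, 1.63% held such a match. An exact half-site was found in 4 of the 7 genes, against 9.55% of all genes. In capitals, the full sites of these 4 genes read as follows, with the strand of the gene.
Cdkn1a (chr17:29090928-29090947, plus strand, 1 mismatch): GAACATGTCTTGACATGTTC
Ccng1 (chr11:40755462-40755481, minus strand, 1 mismatch): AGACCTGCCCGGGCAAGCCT
Bbc3 (chr7:16309486-16309505, plus strand, 3 mismatches): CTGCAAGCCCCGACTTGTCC
Trp53 (chr11:69580284-69580303, plus strand, 3 mismatches): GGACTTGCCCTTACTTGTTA

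Cdkn1a has 2 annotated starts lying 2790 bases apart. Counting from the upstream start, its full site ran from -51 to -32, and it began 2841 bases before the downstream start, whose own window held no match. The Ccng1 site ran from -195 to -176 and the Bbc3 site from -97 to -78, in Bbc3 counted from the first of 3 starts. In Mdm2 the window held an exact half-site from -186 to -177 (chr10:117710935-117710944) and no full site. The windows of Plk2 and Btg2 held neither, which says only that these letters are not in these windows. The windows of Cdkn1a, Ccng1 and Mdm2 are printed whole, since these are the members with a match that were bright enough on the arrays to be compared. Capitals mark full sites and exact half-sites.
Cdkn1a upstream start (chr17:29090729-29091028, plus strand): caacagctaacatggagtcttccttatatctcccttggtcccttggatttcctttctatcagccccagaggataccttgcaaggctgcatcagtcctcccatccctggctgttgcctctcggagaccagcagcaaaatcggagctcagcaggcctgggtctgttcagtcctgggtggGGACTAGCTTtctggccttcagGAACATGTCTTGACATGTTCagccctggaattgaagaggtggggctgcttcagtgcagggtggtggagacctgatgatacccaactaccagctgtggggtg
Ccng1 (chr11:40755237-40755536, minus strand): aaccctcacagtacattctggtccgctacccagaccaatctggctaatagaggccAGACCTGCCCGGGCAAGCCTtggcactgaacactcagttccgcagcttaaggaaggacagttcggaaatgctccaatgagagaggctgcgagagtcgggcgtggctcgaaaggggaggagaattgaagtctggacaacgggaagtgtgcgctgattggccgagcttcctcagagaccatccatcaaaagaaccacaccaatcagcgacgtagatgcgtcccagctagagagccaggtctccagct
Mdm2 (chr10:117710709-117711008, minus strand): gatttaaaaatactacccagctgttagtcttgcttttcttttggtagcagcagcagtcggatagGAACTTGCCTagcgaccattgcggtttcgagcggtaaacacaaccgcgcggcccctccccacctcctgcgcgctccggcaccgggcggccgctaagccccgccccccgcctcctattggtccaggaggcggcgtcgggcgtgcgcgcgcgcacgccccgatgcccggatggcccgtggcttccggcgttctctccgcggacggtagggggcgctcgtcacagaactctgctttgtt

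**Figure D1:**
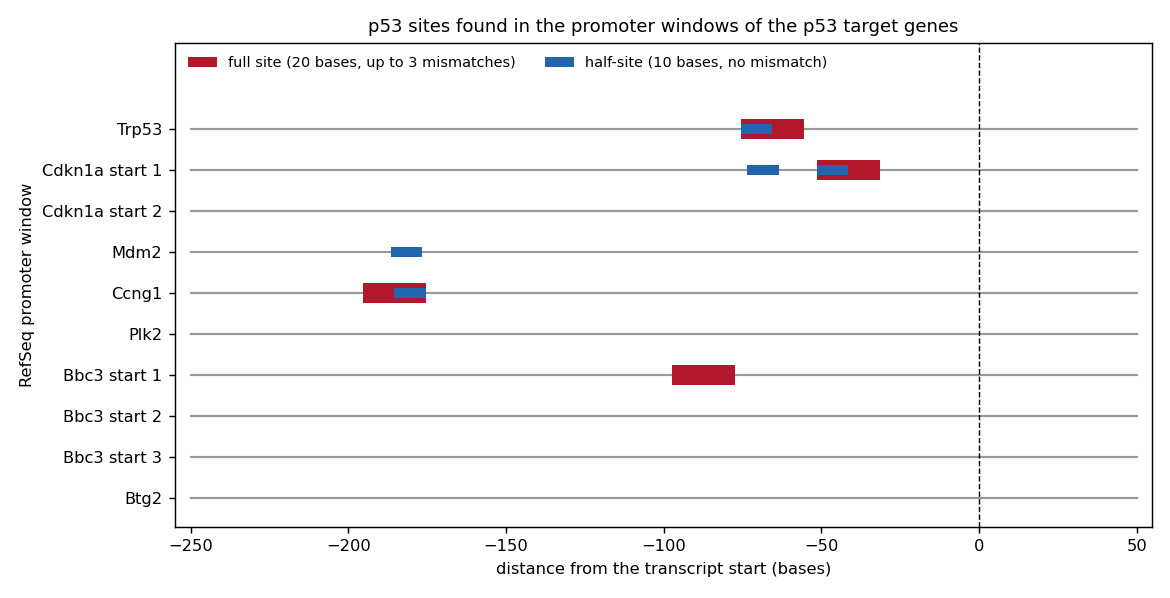
Positions of matches to the p53 site in the promoter windows of the p53 target genes. The horizontal axis is the distance from the transcript start in bases, each line is a window, thick red bars are full sites of 20 bases with up to 3 mismatches, and thin blue bars are exact half-sites of 10 bases. The windows of 4 genes (Trp53, Cdkn1a, Ccng1 and Bbc3) hold a full site, all of them before the start.

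The deposited values are signals on a linear scale, scaled by the authors so that each array had the same trimmed mean (500.2 on each). Between 6066 and 6328 probe sets per array reached a signal of 500. The scale factors were 8.70 in tri-CH1 hypoxia, 10.3 in tri-CH1 normoxia, 6.73 in wildtype hypoxia and 3.46 in wildtype normoxia, and the wildtype normoxia array came from another array lot. Signals under 200 were raised to 200 before a ratio was taken. The background that the signals were corrected for, multiplied by the scale factor, was 393.5 in tri-CH1 hypoxia and 342.9 in tri-CH1 normoxia. It was 245.9 in wildtype hypoxia and 139.1 in wildtype normoxia, and only the last lay under this floor. A gene was counted in a comparison when the brighter of its 2 arrays reached 500, and a change of at least 2-fold in either direction was called. A fold whose dimmer side lay under 200 is written as at least that fold. Where a gene had several probe sets, the one with the highest mean signal stood for it. The other probe sets of the members are given where genotypes are compared, and with oxygen where they differ in sign. Bnip3, a HIF target used as a check of the oxygen labels, rose 21.1-fold in tri-CH1 and 26.2-fold in wildtype, and the glucose transporter gene Slc2a1 rose 6.19-fold in both. The HIF target Vegfa rose on 2 probe sets that differ in which genotype gave more, 2.58-fold in tri-CH1 and 4.04-fold in wildtype on one and 5.12-fold and 3.05-fold on the other. The Crebbp probe set, for the CBP gene, gave 87.7 and 61.3 in tri-CH1 hypoxia and normoxia and 29.6 and 82.8 in wildtype hypoxia and normoxia. All of these lie under 200, so they do not check the deletion. All 10 fibroblast markers reached 500 on an array. The epithelial markers Cdh1 and Epcam were no higher than 36.7 on any array and the endothelial marker Pecam1 no higher than 38.3. Of the 4 blood and macrophage markers measured, only Csf1r reached 500, at 625 to 701. Of the other lists, 2 of 6 epithelial markers (Krt8 and Krt18), none of 4 endothelial, none of 3 skeletal muscle and 1 of 3 neural markers (Nes) did so. The number of arrays limits the precision of every value, and in a bulk sample fewer cells expressing a gene and less RNA per cell cannot be told apart.

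Of the 9 measured genes, 7 reached 500 on at least 1 array (Cdkn1a, Mdm2, Ccng1, Pmaip1, Plk2, Btg2 and Trp53inp1), and Bbc3 and Perp did not. By probe set, 12 of 15 reached that level. The main pattern was one of genotype. In tri-CH1 cells the proapoptotic gene Pmaip1, the kinase gene Plk2, the cyclin gene Ccng1 and the p53 inhibitor gene Mdm2 were lower than in wildtype cells in hypoxia, and Pmaip1 and Plk2 were lower in normoxia as well. All 12 bright probe sets, several of them from the same gene, had lower signals in tri-CH1 than in wildtype at both oxygen levels. The share over all probe sets counted at both was 35.4%. The sign was fixed by the minimum for Pmaip1 at both levels and for Trp53inp1 in hypoxia, since these reached 500 in wildtype alone. The differences of Cdkn1a, Btg2 and Trp53inp1 were under 2-fold. With oxygen none of the counted members moved by 2-fold in either genotype. Among all genes 3.19% rose and 0.987% fell in tri-CH1, and 3.05% rose and 1.19% fell in wildtype. With so few members, none called is near these shares.

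**Figure D2:**
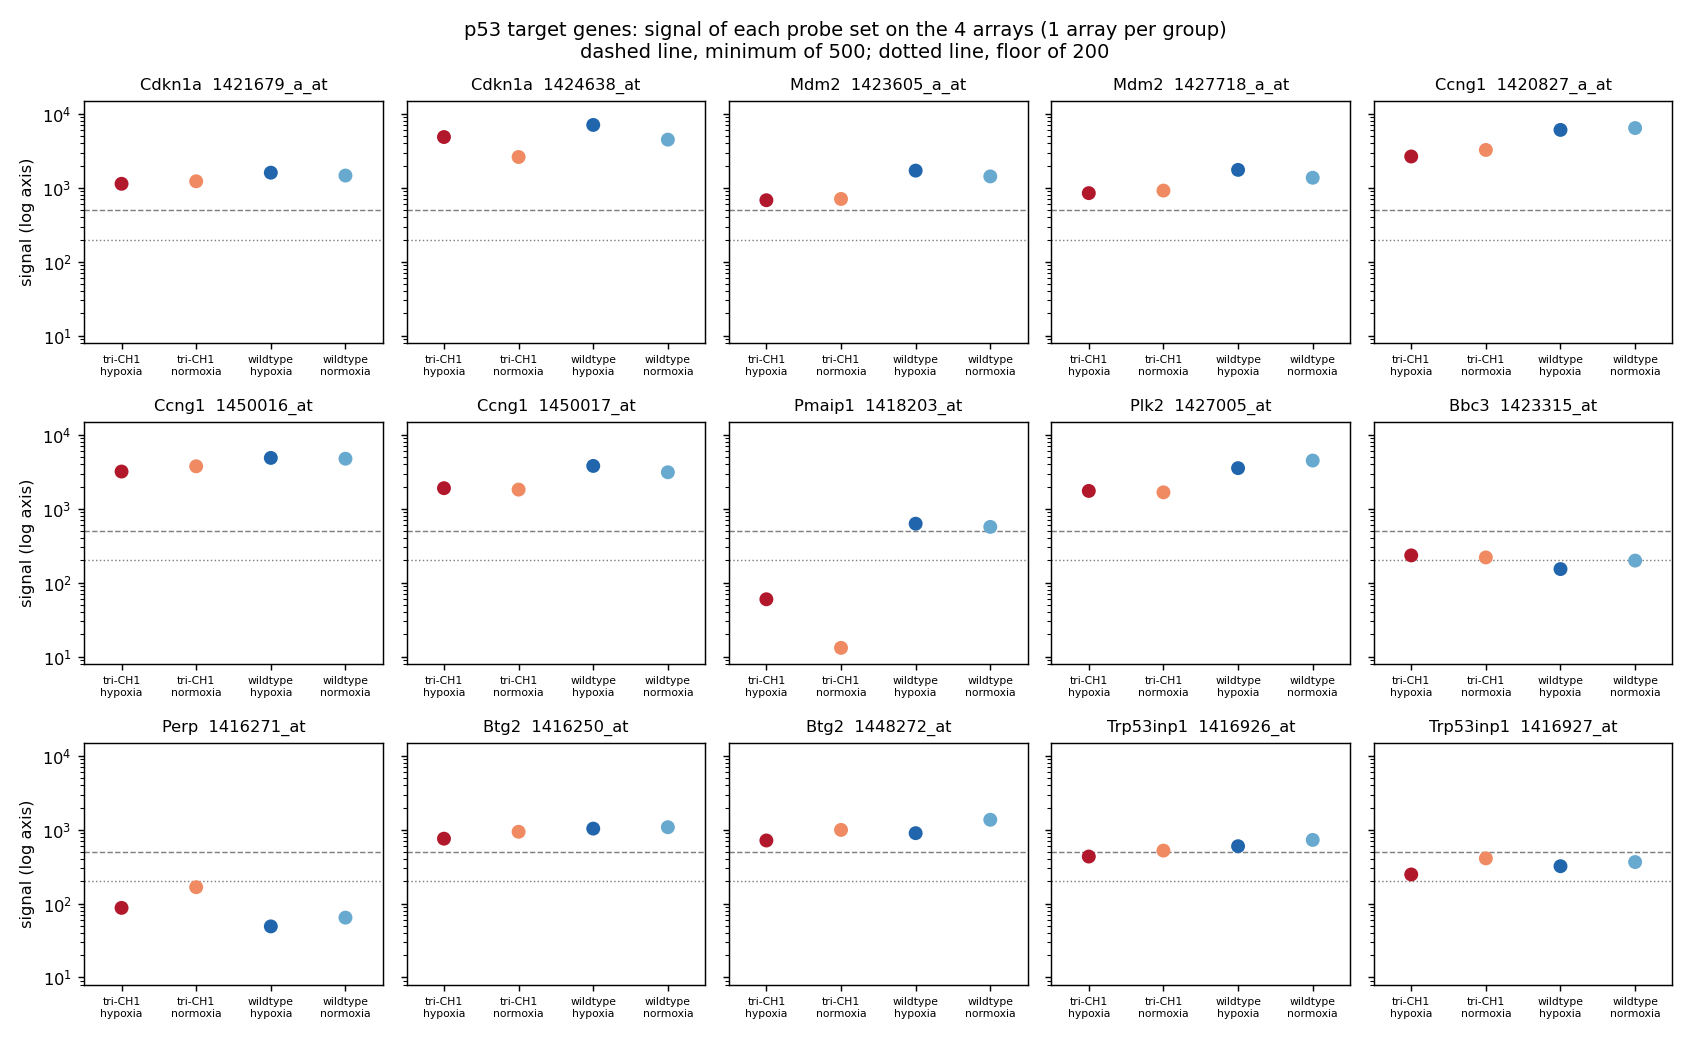
Signal of each of the 15 probe sets on the 4 arrays, on a log axis, with 1 point per array and 1 array per group. The dashed line is the minimum of 500 and the dotted line the floor of 200. The 2 tri-CH1 signals of Pmaip1 lie below the floor and its 2 wildtype signals above 500, while Bbc3 and Perp stay under 500 throughout.

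Among the genes that drive apoptosis, Pmaip1, which encodes the BH3-only protein Noxa, showed the widest gap between the genotypes (probe set 1418203_at). Its signal was 59.6 in tri-CH1 hypoxia and 13.1 in tri-CH1 normoxia, against 629 in wildtype hypoxia and 569.6 in wildtype normoxia. Its tri-CH1 signals were thus below 200 and its wildtype signals somewhat above the minimum of 500. Pmaip1 was at least 3.15-fold lower in tri-CH1 in hypoxia and at least 2.85-fold lower in normoxia. It entered the comparison only through its wildtype arrays, and a gene that does so with the other array under 200 is past 2-fold by construction. With a floor of 400 the values were -0.65 and -0.51 on the log2 scale, under 2-fold. Bbc3, encoding the related BH3-only protein Puma, stayed dim (1423315_at), at 234 and 219.5 in tri-CH1 hypoxia and normoxia, against 153 and 199 in wildtype hypoxia and normoxia. Its tri-CH1 signals were the higher ones, but none was far from the floor, and no fold is given. Perp, a membrane protein gene linked to p53-dependent apoptosis and to desmosomes (1416271_at), was under 200 on all 4 arrays, between 49.1 and 166.8.

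Plk2, encoding a polo-like kinase, had 1 probe set (1427005_at). It read 1748 in tri-CH1 hypoxia and 1672 in tri-CH1 normoxia, against 3556 in wildtype hypoxia and 4508 in wildtype normoxia. At each oxygen level its tri-CH1 signal lay below its wildtype signal, as for 32.1% of all genes counted at both. Plk2 was 2.04-fold lower in tri-CH1 in hypoxia (log2 change -1.02) and 2.70-fold lower in normoxia (log2 change -1.43).

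Mdm2, encoding the ubiquitin ligase that marks p53 for degradation, and Ccng1, encoding cyclin G1, are both targets that feed back on p53. The brighter Mdm2 probe set (1427718_a_at) read 849.5 in tri-CH1 hypoxia and 919 in tri-CH1 normoxia, against 1754 in wildtype hypoxia and 1373 in wildtype normoxia. Mdm2 was 2.07-fold lower in tri-CH1 in hypoxia and had a log2 change of -0.58 in normoxia. The other Mdm2 probe set (1423605_a_at) read 681 and 709 in tri-CH1 hypoxia and normoxia, against 1714 and 1431 in wildtype hypoxia and normoxia, which was 2.52-fold lower in hypoxia and 2.02-fold lower in normoxia. On both Mdm2 probe sets the tri-CH1 signal lay below the wildtype signal at each oxygen level, as on 35.4% of all probe sets counted at both. The brightest Ccng1 probe set (1420827_a_at) read 2663 in tri-CH1 hypoxia and 3264 in tri-CH1 normoxia, against 6100 in wildtype hypoxia and 6465 in wildtype normoxia. Ccng1 was 2.29-fold lower in tri-CH1 in hypoxia, and its normoxia value, 1.98-fold, fell just short of a call. A second Ccng1 probe set (1450017_at) read 1903 and 1821 in tri-CH1 hypoxia and normoxia, against 3809 and 3126 in wildtype hypoxia and normoxia. It lay right at the 2-fold limit in hypoxia, where it was called lower, and had a log2 change of -0.78 in normoxia. The last (1450016_at) read 3198 and 3765 in tri-CH1 hypoxia and normoxia, against 4893 and 4773 in wildtype hypoxia and normoxia, with smaller log2 changes of -0.61 and -0.34. The direction was therefore the same on all 3 Ccng1 probe sets, while the size ran from -1.20 to -0.61 in hypoxia.

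Among the genes that hold back growth, Cdkn1a, encoding the cyclin-dependent kinase inhibitor p21, was not past 2-fold. Its brighter probe set (1424638_at) read 4884 in tri-CH1 hypoxia and 2621 in tri-CH1 normoxia, against 7122 in wildtype hypoxia and 4504 in wildtype normoxia. The log2 change in tri-CH1 was -0.54 in hypoxia and -0.78 in normoxia, and the tri-CH1 hypoxia signal lay above that of wildtype normoxia. The other Cdkn1a probe set (1421679_a_at) read 1136.5 and 1229 in tri-CH1 hypoxia and normoxia, against 1607 and 1470 in wildtype hypoxia and normoxia, with log2 changes of -0.50 and -0.26. Btg2, an antiproliferative gene whose protein promotes mRNA deadenylation, read 716 and 995 on its brighter probe set (1448272_at) in tri-CH1 hypoxia and normoxia, against 899 and 1365.5 in wildtype hypoxia and normoxia. Its log2 changes were -0.33 in hypoxia and -0.46 in normoxia, and the other probe set (1416250_at) gave -0.45 and -0.21. These are near the spread between probe sets of a gene, an SD of 0.31 in hypoxia and 0.33 in normoxia on the log2 scale over 1501 genes. This spread is the SD of the difference between the 2 brightest probe sets, divided by the square root of 2. It covers error between probe sets and not between cultures or arrays. Trp53inp1, a stress gene whose protein promotes p53 activity, read 434 and 522 on its brighter probe set (1416926_at) in tri-CH1 hypoxia and normoxia, against 599 and 728 in wildtype hypoxia and normoxia. Its log2 changes were -0.47 in hypoxia and -0.48 in normoxia. The dimmer probe set (1416927_at), between 248 and 409 on the 4 arrays, had log2 changes of -0.37 in hypoxia and 0.16 in normoxia, so its sign turned.

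**Figure D3:**
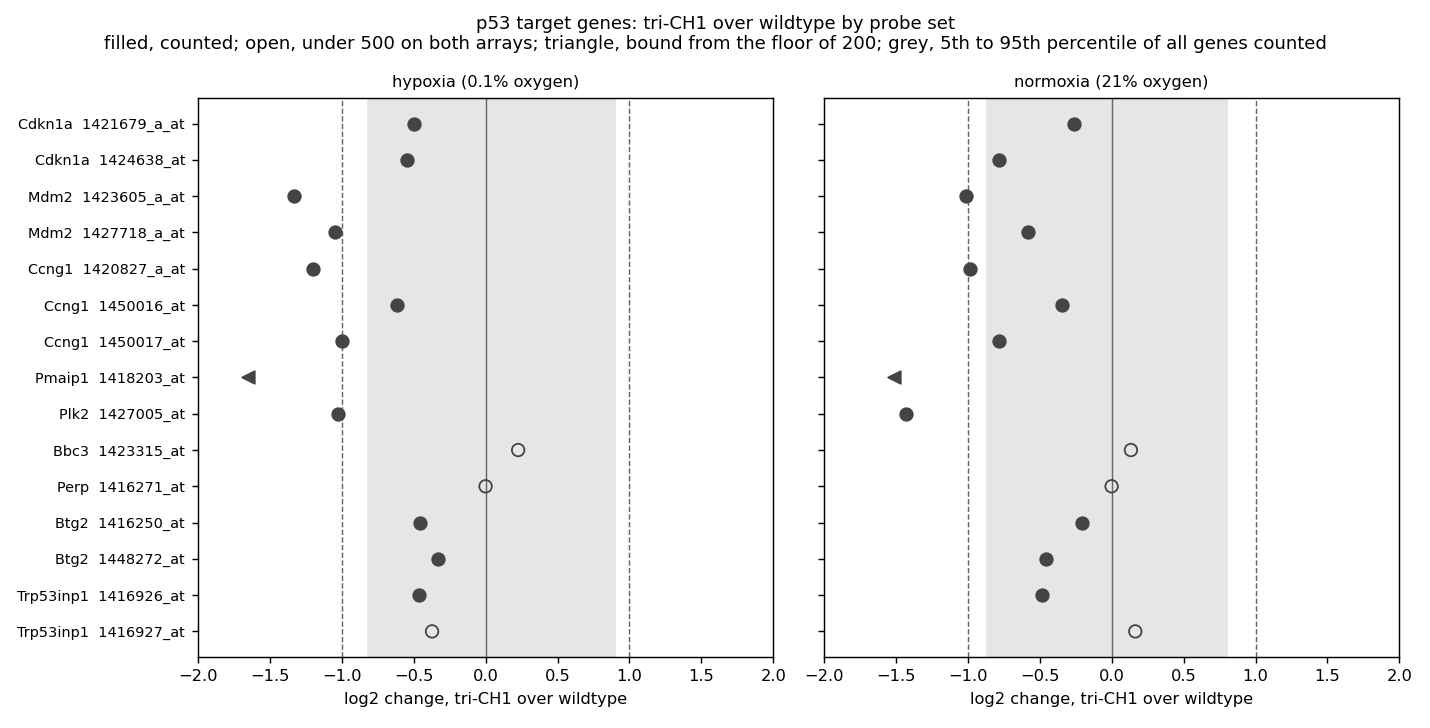
Log2 change in tri-CH1 over wildtype for each probe set, in hypoxia on the left and normoxia on the right. Filled points are probe sets with at least 1 array of the pair at 500, open points are dimmer, triangles are bounds set by the floor of 200, dashed lines mark 2-fold, and the grey band holds the 5th to 95th percentile of all genes counted. Every filled point lies left of 0 in both panels, a side fixed by the minimum for Pmaip1 and, in hypoxia, for Trp53inp1.

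Counted over genes, 4 of 7 members were lower in tri-CH1 in hypoxia and none was higher. Of the 4233 genes counted there, 3.31% were lower and 3.76% higher. In normoxia 2 of 7 were lower and none was higher, where 3.48% of 4333 genes were lower and 3.16% higher. Pmaip1 and Plk2 were lower at both oxygen levels, as were 2.04% of the 3921 genes counted at both. The hypoxia call of Plk2 was lost with quantile normalization, at -0.98, and with cyclic loess, at -0.99. Each left 3 of 7, beside 3.54% and 3.46% of all genes. The hypoxia call of Ccng1 was lost with the mean over its probe sets, at -0.94, where 3 of the 6 members counted were lower (3.32% of all genes). Leaving out Pmaip1, which had to differ, left 3 of 6 members lower in hypoxia (3.28% of all genes) and 1 of 6 in normoxia (3.46%). By any size, all 7 were below 0 at both oxygen levels, as were 32.1% of all genes, but the sign was fixed by the minimum for Pmaip1 at both levels and for Trp53inp1 in hypoxia, which reached 500 in wildtype alone. The median log2 change of the members was -1.02 in hypoxia, against 0.05 for all genes counted, and -0.78 in normoxia, against 0.03. Without Pmaip1 it was -0.78 in hypoxia and -0.68 in normoxia. The array of the other lot, wildtype normoxia, is used in the normoxia comparison only, where lot and genotype cannot be told apart. The 2 genotype comparisons share no array, but the labels do not say whether they share embryos or cultures. In each genotype comparison the tri-CH1 array had the higher scale factor, 8.70 against 6.73 in hypoxia and 10.3 against 3.46 in normoxia. Array brightness and genotype therefore cannot be told apart. With each array scaled to the same median, the median of all genes in normoxia moved to -0.21, the calls over all genes went to 81 higher and 262 lower (137 and 151 as deposited), and Cdkn1a and Ccng1 joined the members called lower, making 4 of 7. Relative to all genes, the members' median in normoxia was -0.79 there, against -0.81 as deposited.

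**Figure D4:**
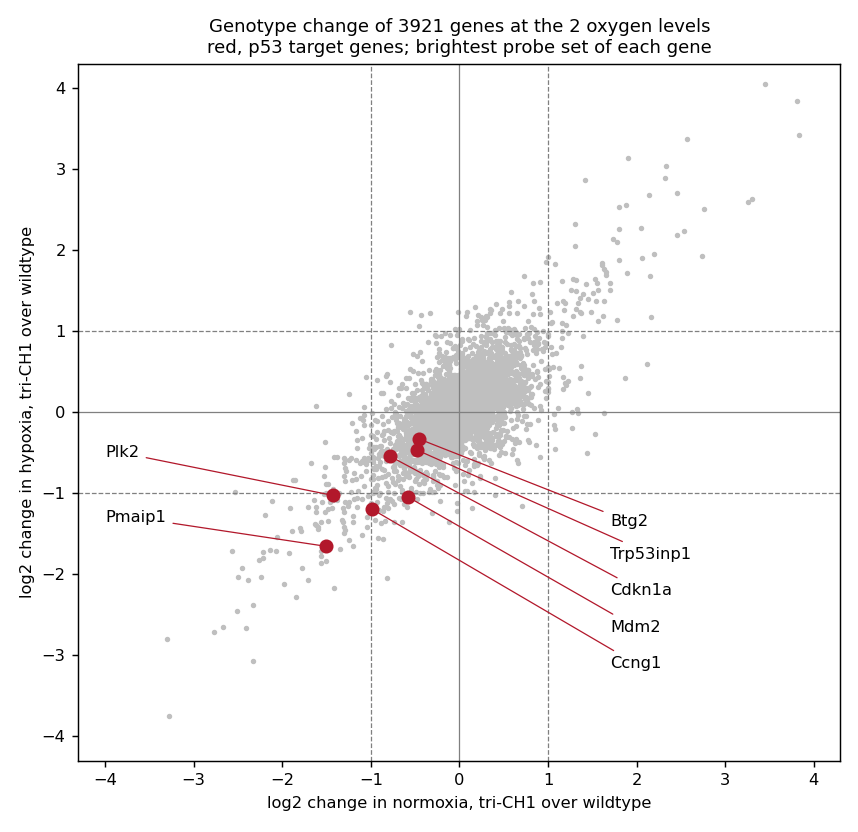
Log2 change in tri-CH1 over wildtype of the 3921 genes counted at both oxygen levels, with hypoxia on the vertical and normoxia on the horizontal axis. Each grey point is a gene by its brightest probe set, red points are the 7 p53 target genes counted, and dashed lines mark 2-fold. The 7 red points all lie below and left of 0, with Pmaip1, drawn at its bound, and Plk2 past 2-fold on both axes. The sign was fixed by the minimum for Pmaip1 on both axes and for Trp53inp1 in hypoxia.

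By rank from the lowest, Ccng1 stood 84th of the 4233 genes in hypoxia and 157th of 4333 in normoxia, Plk2 132nd and 67th, and Mdm2 129th and 422nd. Cdkn1a stood 428th in hypoxia and 255th in normoxia, below Mdm2 in normoxia only. Btg2 and Trp53inp1 lay further in, with 18.9% and 12.4% of all genes as low or lower in hypoxia. Pmaip1 has no rank, because its change is only bounded.

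The genotypes also differed in fibroblast markers. Thy1, a surface glycoprotein of fibroblasts, read 3274 and 3837 in tri-CH1 hypoxia and normoxia, against 12389 and 13148 in wildtype hypoxia and normoxia. The proteoglycan gene Lum ran the other way, at 2684 and 1561.5 in tri-CH1 hypoxia and normoxia, against 419 and 355 in wildtype hypoxia and normoxia. In hypoxia Dcn was 2.41-fold and Col1a1 2.02-fold higher in tri-CH1, and both were under 2-fold in normoxia. The rest of the 10 fibroblast markers stayed under 2-fold between genotypes. The summed signal of all 10 was between 125471 and 126018.5 in tri-CH1 and between 112272 and 115737 in wildtype. That sum is weighted toward the brightest markers, with Vim at 32785 and Col1a2 at 32246 in tri-CH1 hypoxia. The part of these marker differences in the p53 target values was not tested.

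A list of other p53 targets was counted by the same rule. Of its 52 genes, 46 were on the arrays and 22 were counted in each genotype comparison. In hypoxia 2 were higher in tri-CH1 and none was lower, and in normoxia 2 were higher and 1 was lower. Among all genes, 3.76% were higher and 3.31% lower in hypoxia, and 3.16% higher and 3.48% lower in normoxia. The list had a median log2 change of -0.0037 in hypoxia and -0.03 in normoxia, beside 0.05 and 0.03 for all genes. Cd82, a tetraspanin gene, read 1256 and 1176 in tri-CH1 hypoxia and normoxia, against 402 and 406 in wildtype hypoxia and normoxia, and was 3.13-fold and 2.90-fold higher. Its probe sets disagree, because the dimmer one gave log2 changes of -1.07 in hypoxia and 0.43 in normoxia. Ephx1, the microsomal epoxide hydrolase gene, was 2.34-fold higher in hypoxia, with a log2 change of 0.34 in normoxia. Prkab1, for a subunit of the energy-sensing kinase AMPK, was 2.09-fold higher in normoxia, and the growth factor gene Pdgfc was 2.12-fold lower there, with another probe set at -0.73. Cd82 at both oxygen levels and Prkab1 in normoxia reached the minimum signal in tri-CH1 alone. Their sign there was therefore fixed by the minimum, and they were the 2 genes called higher in normoxia. Over all counted genes of the list the log2 change ran between -0.78 and 1.64 in hypoxia and between -1.09 and 1.53 in normoxia.

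Regulators and cofactors of p53 were counted separately. Of 33 listed genes, 27 were on the arrays, with 10 counted in hypoxia and 12 in normoxia. None of the 10 was called in hypoxia, where 3.76% of all genes were higher and 3.31% lower. In normoxia 1 of 12 was lower, where 3.48% of all genes were, and this was the kinase gene Hipk2, whose product phosphorylates p53. Hipk2 read 379 in tri-CH1 hypoxia and 188 in tri-CH1 normoxia, against 497 in wildtype hypoxia and 522 in wildtype normoxia, so that it was at least 2.61-fold lower in normoxia. With wildtype above 500 and tri-CH1 under 200, that call was fixed by construction, as for Pmaip1. This probe set is of the _x_at kind, which can take up signal of other genes, and the other 4 Hipk2 probe sets stayed under 500. The list's medians were 0.09 in hypoxia and 0.16 in normoxia.

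Hypoxia changed none of the members by 2-fold. In tri-CH1 cells 6 members were counted and none rose or fell, where 3.19% of all 4358 genes rose and 0.987% fell. In wildtype cells 7 were counted and none rose or fell, where 3.05% of all 4125 genes rose and 1.19% fell. For so few members, none called is near these shares. With median scaling, calls over all genes were 152 higher and 26 lower in tri-CH1, against 139 and 43 as deposited, and 116 higher and 72 lower in wildtype, against 126 and 49. The members' median log2 change was -0.19 in tri-CH1 and -0.08 in wildtype, beside -0.04 and -0.06 for all genes.

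**Figure D5:**
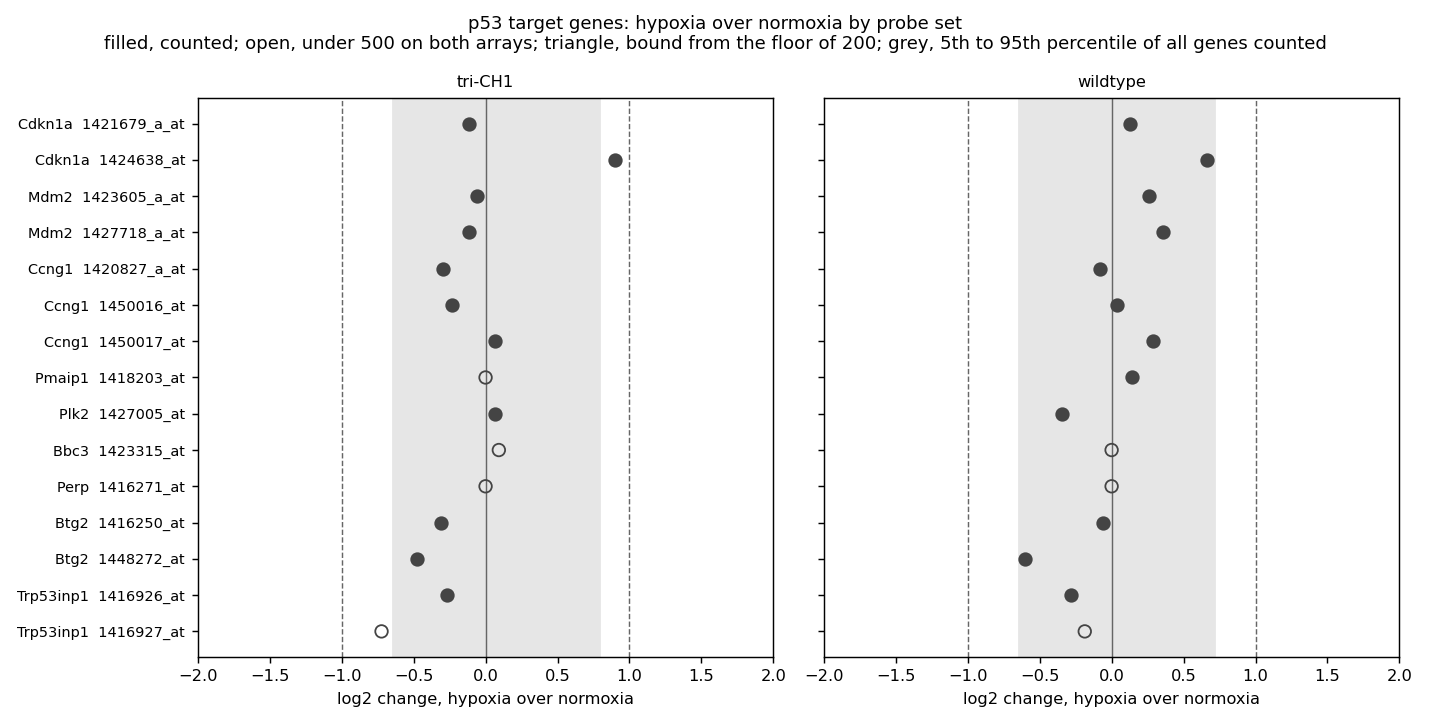
Log2 change in hypoxia over normoxia for each probe set, in tri-CH1 on the left and wildtype on the right, with symbols as in the plot of genotype changes. No probe set passes the dashed 2-fold lines, and the point farthest to the right in both panels is the brighter Cdkn1a probe set, at 0.90 and 0.66.

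Cdkn1a came nearest to a rise. On its brighter probe set the hypoxia signal was 1.86-fold above normoxia in tri-CH1 and 1.58-fold above in wildtype, and 3.85% and 5.79% of all genes were as high or higher. The other Cdkn1a probe set gave log2 changes of -0.11 in tri-CH1 and 0.13 in wildtype, so the probe sets did not give the same answer. The probe sets differ by more than the spread between probe sets, an SD of 0.29 in tri-CH1 and 0.25 in wildtype. That SD is for a single probe set, and a difference between 2 probe sets spreads more widely. Btg2 had log2 changes of -0.48 in tri-CH1 and -0.60 in wildtype on the brighter probe set and -0.31 and -0.06 on the other. Mdm2 had -0.11 in tri-CH1 and 0.35 in wildtype, with -0.06 and 0.26 on the other probe set. Plk2 had 0.06 in tri-CH1 and -0.34 in wildtype. Ccng1 had -0.29 in tri-CH1 and -0.08 in wildtype, and its other probe sets differ from this in sign in part, with -0.24 and 0.04 on 1450016_at and 0.06 and 0.28 on 1450017_at. Trp53inp1 had -0.27 in tri-CH1 and -0.28 in wildtype, and its dimmer probe set, under 500 on every array, had -0.72 and -0.19. Pmaip1 was not counted in tri-CH1, where both signals were under 200, and had 0.14 in wildtype.

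The hypoxia change in tri-CH1 minus that in wildtype was under 1 log2 unit in size for the 6 members measured in both genotypes. Among all 4645 genes, 1.77% were higher and 1.46% lower by that much, and with median scaling 3.15% and 0.972%. Without Pmaip1 the members' median was 0.07, beside 0.03 for all genes. The difference was most negative for Mdm2, at -0.47, and most positive for Plk2, at 0.41, beside an SD between probe sets of 0.36. Pmaip1 has no such difference, since both its tri-CH1 signals are under 200. Both Mdm2 probe sets had the same sign here, the other giving -0.32.

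Of the 52 further p53 targets, 22 were counted with oxygen in tri-CH1 and 20 in wildtype, and 1 gene rose in each, beside 3.19% and 3.05% of all genes. It was Ddit4, a stress-induced inhibitor of mTORC1 that is also a HIF target. It rose to 2981 in tri-CH1 hypoxia, against 770 in tri-CH1 normoxia, which was 3.87-fold, and to 3614 in wildtype hypoxia, against 1236 in wildtype normoxia, which was 2.92-fold. The list's medians were -0.05 in tri-CH1 and -0.13 in wildtype. None of the regulators passed 2-fold with oxygen, over 10 counted in tri-CH1 and 12 in wildtype. Among all genes, 3.19% rose and 0.987% fell in tri-CH1, and 3.05% rose and 1.19% fell in wildtype.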

How the data were processed

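Expression was measured on 4 Affymetrix mouse arrays of 22690 probe sets. Per the labels, the authors used the statistical algorithm of Affymetrix to give each probe set a background-corrected signal intensity and multiplied each array by a scale factor to a target of 500; the deposited intensity values are linear. The software version was not given in the sources used here. Gene symbols came from GEO's platform annotation: 20380 had 1 gene symbol, 691 several and 1555 none, and 64 were controls. Those with 1 symbol gave 12393 genes, each taking its probe set with the highest mean signal. Signals under 200 were raised to 200, a minimum of 500 applied to the brighter array of a pair, and calls were made at 2-fold. With 1 array per group there was no test. All probe sets of the members were named, and of the other lists those genes past 2-fold, with Crebbp, Bnip3, Slc2a1 and Vegfa as checks; the single markers were named after their values were seen. The members and lists were chosen with earlier results of these data known. The rules were tested on simulated data. The alternatives were floors of 100, 400 and none, minimums of 250, 1000 and none, a 1.5-fold limit, quantile, cyclic loess and median scaling, the mean over probe sets, and plain _at probe sets. The software was R 4.3.3 with limma 3.58.1, and Python 3.11.15 with matplotlib 3.10.9, scipy 1.17.1, pandas 2.3.3 and numpy 2.4.6.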

Additional observations from a re-analysis of the deposited data

How the results depend on the processing

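The genotype difference kept its direction: the members' median lay below 0 under all 13 alternatives, between -1.10 and -0.54 in hypoxia and at or below -0.58 in normoxia. In hypoxia the median was -0.65 with a floor of 400, -0.54 with no minimum signal and -0.58 with plain _at probe sets. In that last setting 2 of 6 members, Pmaip1 and Plk2, were lower (3.36% of all genes), in place of 4 of 7 (3.31%). This was because the brightest Ccng1 probe set and both Mdm2 probe sets have other names. In normoxia 1 of 7 members was lower with a floor of 400 (2.61% of all genes) and 1 of 5 with a minimum of 1000 (4.09%). Leaving out Pmaip1, a setting added after seeing the data, gave 1 of 6 (3.46%), against 2 of 7 as reported (3.48%). With median scaling 4 of 7 were lower (6.04%), and at 1.5-fold 4 of 7 (9.51%). With oxygen, a 1.5-fold limit called 1 member higher in tri-CH1 (8.56% of all genes), and 1 higher (6.91%) and 1 lower (6.79%) in wildtype. With no floor the difference in response called 1 higher (2.09% of all genes), Pmaip1, at 2.04 from tri-CH1 signals of 59.6 and 13.1. No called value reversed. No array could be left out, and no paired analysis was possible because each group has 1 array. Signals near or under 200 limit Pmaip1, Bbc3 and Perp.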
